A study of Mus musculus with 3 samples.

Results

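The genes described here encode the inter-alpha-trypsin inhibitor family: Ambp, which encodes the precursor of the light chain bikunin, the heavy chain genes Itih1, Itih2, Itih3, Itih4 and Itih5, and Tnfaip6, which encodes the enzyme that transfers heavy chains onto hyaluronan. These 7 genes, of 29917 in the files, were followed by the transcript row with the largest total count in 3 RNA sequencing libraries of isolated brain vessels. They were chosen on the readout itself, because earlier results of these data placed Ambp among the genes with a large ratio in both comparisons with wild-type (WT) vessels, and the other 6 were added as its partners. Their values are therefore a description, and no test was made of them.

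The question was how gene expression in vessels purified from mouse brain differs when Gjb6, which encodes a connexin channel protein of astrocytes (Cx30), is deleted. The 3 libraries were Cx30-/- (a deletion of Gjb6 in all cells), C57BL6 WT and C57BL6-BALB/c WT, and each pooled vessels of 3 male mice at an age of 3 months. For the Cx30-/- mice the labels give a C57BL6 background, whereas the study's methods give a mixed C57BL6 and BALB/c background, so values against both WT libraries are given. Each group had 1 library, so replicate error is unknown and no difference was tested, and every 95% interval below covers counting error only.

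Ambp is translated as a precursor protein that is cut into alpha-1-microglobulin, a heme-binding lipocalin, and bikunin, a Kunitz-type inhibitor of trypsin-like proteases. Bikunin carries a chondroitin sulfate chain to which heavy chains are linked, and the complex circulates in plasma, where most of it comes from the liver. In tissues, TSG6, the product of Tnfaip6, moves heavy chains from this complex to hyaluronan, a long sugar polymer of the extracellular matrix, which becomes cross-linked in inflammation and around the ovulating oocyte.

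Counts summed over all transcripts to between 50375426 and 60725557 per library, and they were divided by size factors of 0.9258 to 1.1452 before comparison. Gjb6 had 2899 counts in C57BL6 WT, 2246 in C57BL6-BALB/c WT and 96 in Cx30-/- vessels. Over lists of marker genes, the endothelial genes (such as Cldn5 and Pecam1) had the highest summed level in Cx30-/- vessels and the lowest in C57BL6-BALB/c WT vessels. All 10 had some counts in every library. Choroid plexus genes summed to 150373.3 normalized counts in C57BL6 WT, 58894.4 in C57BL6-BALB/c WT and 79692.2 in Cx30-/- vessels and so stood apart in C57BL6 WT. Most of each of these sums came from the gene Ttr. In such bulk samples, fewer cells of a type and less RNA per cell cannot be told apart.

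Ambp (ENSMUSG00000028356) lies on the minus strand of chromosome 4 of GRCm38 from 63143275 to 63154799. The row used was Ambp-201, a protein-coding transcript of 10 exons and 1268 bases. It had 14 counts in C57BL6 WT, 6 in C57BL6-BALB/c WT and 58 in Cx30-/- vessels, or 12.2 (95% exact Poisson interval 6.7 to 20.5), 6.5 (2.4 to 14.1) and 60.8 (46.2 to 78.7) normalized counts. The Cx30-/- library stood above both WT libraries, and its counting interval overlapped neither of theirs, while the WT intervals overlapped each other. The ratio was 4.98 against C57BL6 WT (95% exact binomial interval 2.74 to 9.66; log2 2.32) and 9.39 against C57BL6-BALB/c WT (4.06 to 26.6; log2 3.23). Between the WT libraries the log2 ratio was -0.92, with an interval from -2.58 to 0.55. With so few WT counts these counting bounds were wide, and spread between replicates is not in them. Ambp was chosen for its large ratio in these comparisons, and it passed the minimum of 50 normalized counts through the Cx30-/- library alone.

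**Figure D1:**
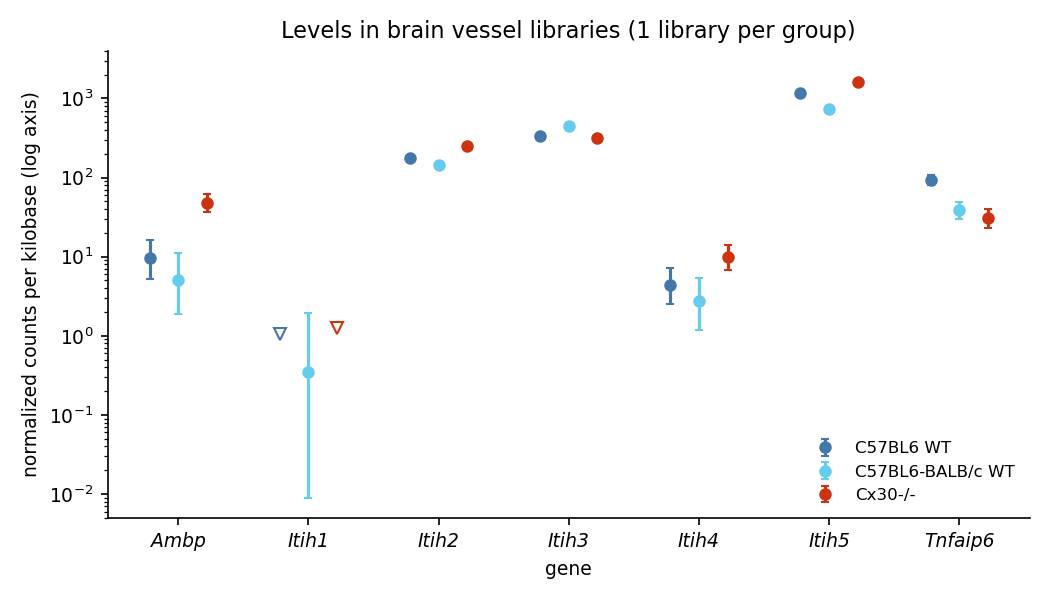
Normalized counts per kilobase of transcript (log axis) for each of the 7 genes in C57BL6 WT, C57BL6-BALB/c WT and Cx30-/- vessels. Points are 1 library each, bars are 95% exact Poisson intervals and open triangles give the upper bound where no read was counted; Ambp is at 48.0 per kilobase in Cx30-/- and at 9.64 and 5.11 in the WT libraries.

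The reads of Ambp covered most of the transcript in the Cx30-/- library and less of it in the WT libraries. They covered 465 of its 1268 bases (36.7%) in C57BL6 WT, 260 (20.5%) in C57BL6-BALB/c WT and 1032 (81.4%) in Cx30-/- vessels. The coverage was thus highest in the library with the most counts, and 81.4% of the bases had at least 1 read there. The other row of the gene, Ambp-202, is a transcript of 3 exons and 375 bases that starts upstream of Ambp-201. It had 3 counts in C57BL6 WT, 1 in C57BL6-BALB/c WT and 15 in Cx30-/- vessels. Of the 141 bases of its own first exon, which Ambp-201 does not share, at least 82 had a read in the Cx30-/- library. None of the 50-base stretches of Ambp-201 occurred in a transcript of another gene, and no annotated exon of another gene overlapped it, which bears on these files because reads matching more than once were removed and strand was not recorded. The search covered exact matches in annotated transcripts only, so copies elsewhere in the genome and near matches were not looked at.

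The sequence upstream of Ambp is shown because the gene next to it, Kif12, was also at least 2-fold higher in the Cx30-/- library in both comparisons. Kif12 encodes a motor protein of the kinesin family. Both genes are on the minus strand, and Kif12 lies 10.8 kb upstream of Ambp, from 63165630 to 63172131. The sequences below are the bases just before the start of each gene from RefSeq (GRCm38.p6), written 5′ to 3′ on the minus strand. The Ambp sequence is at chr4:63154174-63154422, within the first intron of Ambp-202, and the Kif12 sequence is at chr4:63172132-63172381, outside annotated exons of Kif12. Capitals mark matches to 2 motifs searched on both strands, the nuclear receptor motif AGGTCA and the TATA box TATAAA, which did not overlap each other here.
Ambp: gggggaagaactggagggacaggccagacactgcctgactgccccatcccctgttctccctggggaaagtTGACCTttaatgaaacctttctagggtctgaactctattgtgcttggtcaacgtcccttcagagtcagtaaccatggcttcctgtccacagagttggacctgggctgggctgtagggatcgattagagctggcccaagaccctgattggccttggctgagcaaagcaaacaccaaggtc
Kif12: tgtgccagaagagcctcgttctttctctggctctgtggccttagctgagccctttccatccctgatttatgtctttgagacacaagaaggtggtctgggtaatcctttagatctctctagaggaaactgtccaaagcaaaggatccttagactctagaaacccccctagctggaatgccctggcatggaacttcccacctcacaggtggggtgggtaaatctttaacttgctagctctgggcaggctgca
The Ambp sequence held 1 match, to AGGTCA on the opposite strand, and the Kif12 sequence held 0. Among 32851 upstream sequences of the same window in the mouse genome, 14.0% held AGGTCA and 12.4% TATAAA, so a match of this kind is common and is given as a description of the letters only.

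Kif12 had 29 counts in C57BL6 WT, 15 in C57BL6-BALB/c WT and 80 in Cx30-/- vessels, in the row with the largest total, Kif12-203, which retains an intron. The protein-coding row Kif12-201 had 31, 14 and 75 counts. As for Ambp, the Cx30-/- library was the highest, and the log2 ratio between the WT libraries was -0.64 (-1.65 to 0.30). The log2 ratio of Kif12 was 1.73 against C57BL6 WT (1.1 to 2.39) and 2.37 against C57BL6-BALB/c WT (1.57 to 3.28). No annotated exon of another gene overlapped the Kif12 row.

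Of the 5 nearest protein-coding genes on either side, 6 of 10 reached 50 normalized counts in 1 or both libraries of each Cx30-/- comparison, and of these only Kif12 was at least 2-fold different in either. The other 4 had too few counts to be compared. Zfp618, a zinc finger gene 3.6 kb away on the other side, had log2 ratios of -0.06 and -0.35 against C57BL6 WT and C57BL6-BALB/c WT. Col27a1, a collagen gene beyond Kif12, had log2 ratios of 0.18 and 0.42, and Rgs3, a regulator of G protein signaling, 0.31 and 0.82. Alad, an enzyme of heme synthesis, had 0.72 and 0.14, and Pole3, a DNA polymerase subunit, 0.04 and 0.25. The orosomucoid genes Orm1, Orm2 and Orm3, which encode plasma lipocalins of the acute phase, had 0 to 4 counts in every library, and 4933430I17Rik had 13 to 16. Within 1 Mb of Ambp, a window added after these values were seen, 21 of 30 other protein-coding genes passed the minimum in both comparisons. Beside Kif12, only Tnfsf8 among the genes past the minimum was at least 2-fold higher in both. It encodes the ligand of the receptor CD30, lies 676.5 kb upstream and had 31, 10 and 74 counts in C57BL6 WT, C57BL6-BALB/c WT and Cx30-/- vessels. The other 19 genes had log2 ratios from -0.31 to 0.72 against C57BL6 WT and from -0.48 to 0.83 against C57BL6-BALB/c WT. Like Ambp, Kif12 and Tnfsf8 passed the minimum through the Cx30-/- library alone, at 83.9 and 77.6 normalized counts. Over all genes past the minimum, 1.42% were 2-fold different in the same direction in both comparisons.

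**Figure D2:**
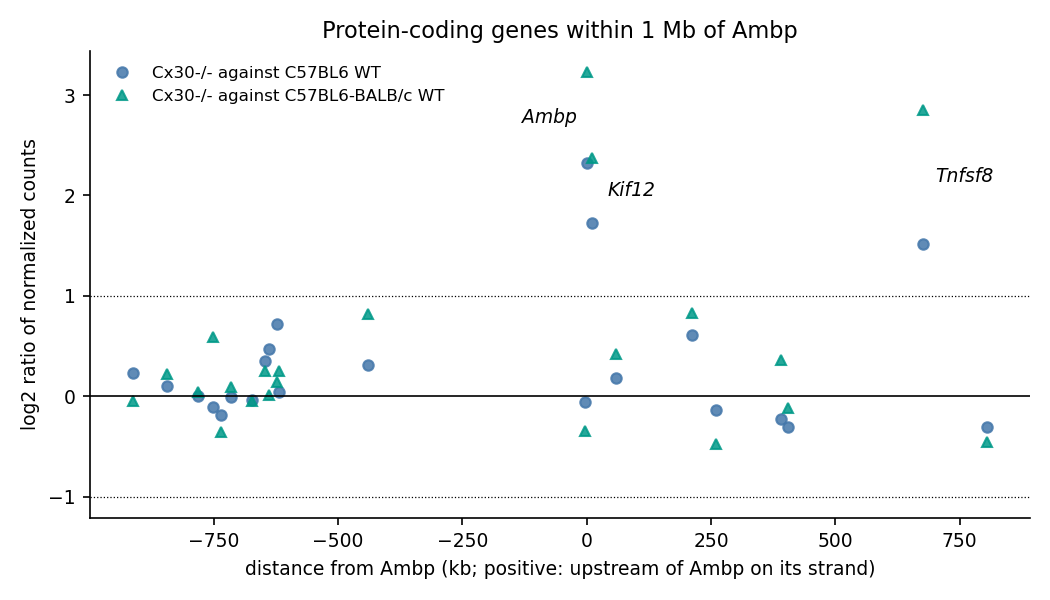
Log2 ratios of Cx30-/- over each WT library for protein-coding genes within 1 Mb of Ambp that passed the count minimum in both comparisons, by distance from Ambp in kb (positive values are upstream of Ambp). Dotted lines mark 2-fold; Ambp, Kif12 at 10.8 kb and Tnfsf8 at 676.5 kb lie above the upper line in both comparisons, and the other 19 genes lie between the lines.

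A gene was counted as different in a comparison when its ratio was at least 2 and either library reached a minimum of 50 normalized counts. Against C57BL6 WT, 5 of the 7 genes passed the minimum and 2 were different, Ambp higher and Tnfaip6 lower, while 2.68% of all 14776 genes past the minimum were. Against C57BL6-BALB/c WT, 5 passed and 2 were different, Ambp and Itih5, both higher, beside 8.69% of all 14891 genes. Ambp alone was different in the same direction in both comparisons, as were 1.42% of 14688 genes. Between the WT libraries, 4 passed and 1 was different, Tnfaip6, which was lower in C57BL6-BALB/c WT, beside 3.43% of 14791 genes. Since the genes were chosen on these comparisons, nothing is read from the counts. The Cx30-/- library enters both comparisons, which are therefore not independent. The median log2 ratio of the 5 genes past the minimum was 0.48 against C57BL6 WT and 0.80 against C57BL6-BALB/c WT, and that of all genes was -0.005 and 0.004. The member just inside the minimum was Ambp, at 60.8 normalized counts in its higher library, and the member just outside was Itih4, at 31.5. With a minimum of 10 normalized counts, or with the rows of a gene summed, Itih4 joined Ambp in both comparisons. The rows of Itih4 share most of their reads, so summing counts these reads more than once. With 50 normalized counts required in both libraries, no member was different in both, because Ambp was below that level in the WT vessels.

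**Figure D3:**
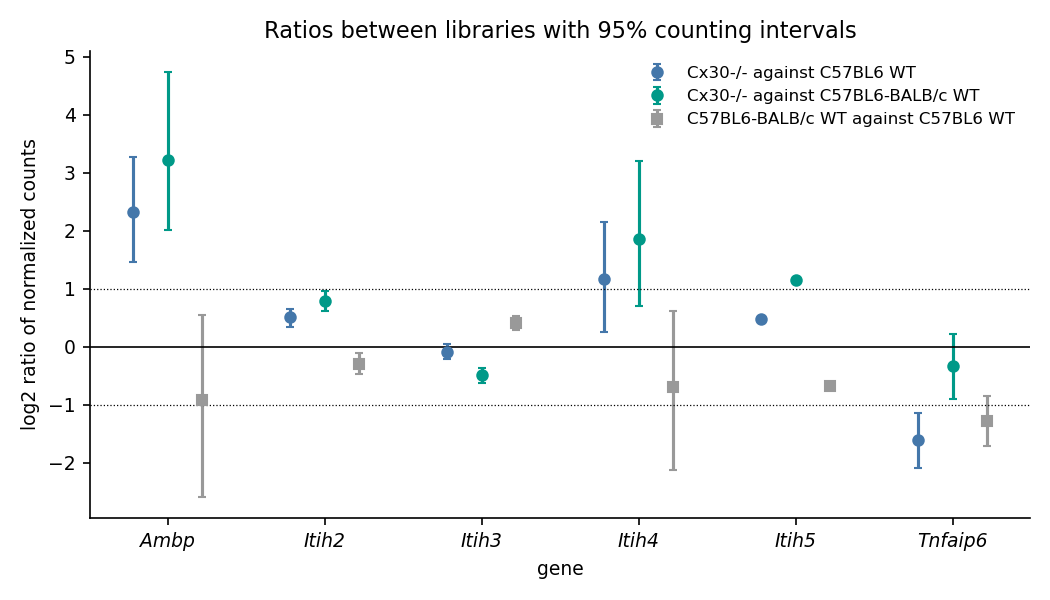
Log2 ratios between libraries for the 6 genes with counts in all of them, with 95% counting intervals. Circles are Cx30-/- over each WT library, squares are C57BL6-BALB/c WT over C57BL6 WT and dotted lines mark 2-fold; Ambp lies above the upper line with its whole interval in both Cx30-/- comparisons, and Tnfaip6 lies below the lower line for Cx30-/- and for C57BL6-BALB/c WT against C57BL6 WT.

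Among the heavy chains, Itih5 was the most abundant in every library. Itih5 (ENSMUSG00000025780) encodes a heavy chain that is made in many tissues outside the liver. It lies on the plus strand of chromosome 2 from 10153571 to 10256529, and its row is a transcript of 14 exons and 7900 bases. It had 10580 counts in C57BL6 WT, 5393 in C57BL6-BALB/c WT and 12285 in Cx30-/- vessels, or 9238.6, 5825.1 and 12887.6 normalized counts. The 3 libraries were ordered with narrow counting intervals that did not overlap. The log2 ratio was 0.48 against C57BL6 WT (0.44 to 0.52) and 1.15 against C57BL6-BALB/c WT (1.1 to 1.19), and it was -0.67 between the WT libraries. The WT libraries thus differed from each other by more than the Cx30-/- and C57BL6 WT libraries did.

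The order of the libraries for Itih5 was also that of several cell type lists. The summed normalized counts of 10 endothelial genes were 149973.3 in C57BL6 WT, 94774.7 in C57BL6-BALB/c WT and 182459.4 in Cx30-/- vessels. All 10 were higher in the Cx30-/- library in both comparisons, with medians of 0.23 and 0.86 on the log2 scale. Of these, 0 were at least 2-fold higher in both, while 1.42% of all genes past the minimum were 2-fold different in the same direction. The sums over 10 genes of perivascular and meningeal fibroblasts, such as Dcn and Col1a1, were 52652.1, 40393.1 and 63968.0, with median log2 ratios of 0.21 and 0.57 over the 9 past the minimum. None of these genes was at 0 in any library. The part of these cell types in the values of Itih5 was not tested.

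Itih2 (ENSMUSG00000037254) encodes a heavy chain of the circulating inhibitor. It lies on the minus strand of chromosome 2 from 10094593 to 10131396, 22.2 kb from Itih5, and the 2 genes are transcribed away from each other. It had 627 counts in C57BL6 WT, 415 in C57BL6-BALB/c WT and 742 in Cx30-/- vessels, or 547.5, 448.2 and 778.4 normalized counts. The libraries were thus ordered as for Itih5. The log2 ratio was 0.51 against C57BL6 WT (0.35 to 0.66) and 0.80 against C57BL6-BALB/c WT (0.62 to 0.97), and neither reached 2-fold. Reads covered 92.7% to 96.5% of the 3100 bases of its row. A short row of 267 bases, Itih2-202, had 19, 23 and 40 counts.

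Itih3 (ENSMUSG00000006522), which encodes another heavy chain of the circulating inhibitor, had the opposite order. It lies on the minus strand of chromosome 14 from 30908572 to 30923760. It had 1072 counts in C57BL6 WT, 1150 in C57BL6-BALB/c WT and 845 in Cx30-/- vessels, or 936.1, 1242.1 and 886.4 normalized counts. The highest level was in C57BL6-BALB/c WT vessels, and the other two libraries were close to each other. The log2 ratio was -0.08 against C57BL6 WT (-0.21 to 0.05), an interval that includes no difference, and -0.49 against C57BL6-BALB/c WT (-0.62 to -0.36). Between the WT libraries it was 0.41 (0.29 to 0.53).

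Itih4 and Itih1 lie on either side of Itih3. Itih4 (ENSMUSG00000021922; plus strand of chromosome 14, 30886476 to 30902353) is 6.2 kb from Itih3, and its protein circulates without bikunin. It had 16 counts in C57BL6 WT, 8 in C57BL6-BALB/c WT and 30 in Cx30-/- vessels, or 14.0, 8.6 and 31.5 normalized counts. The Cx30-/- library was the highest, as for Ambp, but its interval (21.2 to 44.9) met that of C57BL6 WT (8.0 to 22.7) and lay above that of C57BL6-BALB/c WT (3.7 to 17.0). The log2 ratio was 1.17 against C57BL6 WT (0.25 to 2.15) and 1.86 against C57BL6-BALB/c WT (0.71 to 3.20), below the minimum of counts. Its other rows, Itih4-202 and Itih4-203, share most of these reads and had 27 and 28 counts in the Cx30-/- library. Itih1 (ENSMUSG00000006529; minus strand of chromosome 14, 30929180 to 30943289), a heavy chain gene of the circulating inhibitor, is 5.4 kb from Itih3. It had 0 counts in C57BL6 WT, 1 in C57BL6-BALB/c WT and 0 in Cx30-/- vessels. A count of 0 allows up to 2.62 normalized counts in C57BL6 WT and 3.15 in Cx30-/- vessels, so Itih1 was not detectable at this depth in those libraries. The 3 genes are on the chromosome of the deleted gene, and Itih1 is 26.2 Mb from Gjb6.

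Compared per kilobase of transcript, Itih5 made up 69.3% of the summed heavy chain level in C57BL6 WT, 55.3% in C57BL6-BALB/c WT and 73.7% in Cx30-/- vessels. The share of Itih3 was 20.0%, 33.6% and 14.5%, and that of Itih2 was 10.5%, 10.8% and 11.4%. Itih2 thus took about the same share in each library. The shares of Itih5 and Itih3 therefore had to vary in opposite directions, since shares add up to a fixed whole and the rest was small. The WT libraries differed from each other as well. Itih4 and Itih1 together were under 1% everywhere. The summed heavy chain level per kilobase was 175.1 times that of Ambp in C57BL6 WT, 260.8 times in C57BL6-BALB/c WT and 46.1 times in Cx30-/- vessels.

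**Figure D4:**
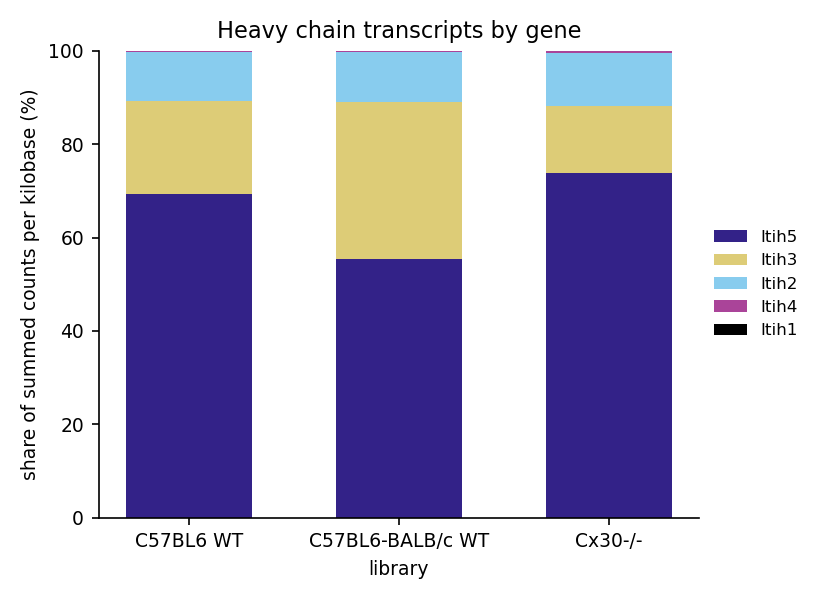
Share (%) of each heavy chain gene in the summed normalized counts per kilobase of Itih1 to Itih5, in 1 library per group. Itih5 holds the greatest share in each library, from 55.3% in C57BL6-BALB/c WT to 73.7% in Cx30-/- vessels, and Itih3 the next, from 14.5% to 33.6%.

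Tnfaip6 (ENSMUSG00000053475) was the member that was lowest in the Cx30-/- library relative to C57BL6 WT. It lies on the plus strand of chromosome 2 from 52038009 to 52056686. It had 182 counts in C57BL6 WT, 61 in C57BL6-BALB/c WT and 50 in Cx30-/- vessels, or 158.9 (136.7 to 183.8), 65.9 (50.4 to 84.6) and 52.5 (38.9 to 69.2) normalized counts. The C57BL6 WT library stood apart from the other two, whose intervals overlapped. The log2 ratio was -1.60 against C57BL6 WT (-2.08 to -1.14) and -0.33 against C57BL6-BALB/c WT (-0.90 to 0.23), and it was -1.27 (-1.71 to -0.84) between the WT libraries. The choroid plexus genes were also highest in C57BL6 WT vessels, where all 10 were above Cx30-/- vessels (median log2 ratio -0.64) and 7 of 10 were at least 2-fold above C57BL6-BALB/c WT. Against C57BL6-BALB/c WT all 10 were higher in Cx30-/- vessels (median log2 ratio 0.45), whereas the log2 ratio of Tnfaip6 was -0.33. The part of choroid plexus in the value of Tnfaip6 was not tested.

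Ordered by level per kilobase, Itih5, Itih3 and Itih2 came first in that order in every library, without overlap of their counting intervals. Tnfaip6 came next in both WT libraries, with 92.9 and 38.5 normalized counts per kilobase, followed by Ambp with 9.64 and 5.11. In Cx30-/- vessels Ambp, with 48.0 per kilobase (36.4 to 62.0), stood before Tnfaip6, with 30.7 (22.8 to 40.4), although these intervals overlapped. Itih4 followed, at 2.74 to 9.96 per kilobase, and its interval overlapped that of Ambp in the WT libraries but not in Cx30-/- vessels.

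In 7 of 8 lists of genes around this pathway, 0 genes were 2-fold different in the same direction in both comparisons. Over all genes past the minimum, 1.42% were. The lists held only 2 to 14 genes past the minimum each, so these counts are given as a description. In these lists, the highest and lowest ratios are meant by the mean of both log2 ratios, and abundance by the mean level per kilobase over the 3 libraries, so neither order need hold in each comparison or library. Of 9 genes for the synthesis and breakdown of hyaluronan, 6 passed the minimum, with median log2 ratios of 0.10 against C57BL6 WT and 0.05 against C57BL6-BALB/c WT. The most abundant by this mean were the hyaluronidases Hyal2 (log2 0.33 and 0.01) and Hyal1 (0.32 and 0.21), and the lowest mean ratio was that of Cemip, a hyaluronan-degrading protein (-0.09 and -0.48), although Has3 was lower against C57BL6 WT (-0.13) and Cemip was above Hyal1 per kilobase in C57BL6-BALB/c WT (286.6 and 240.5). The synthase Has2 had 9 counts in each library. Of 15 hyaluronan receptors and binding proteins, 12 passed, with medians of -0.30 and -0.38. Layn, a membrane receptor of hyaluronan, had the highest ratios (0.67 and 1.46), and Hapln4, a link protein of perineuronal matrix, the lowest (-0.82 and -1.26). The proteoglycan Bcan (-0.22 and -0.37) and the link protein Hapln2 (-0.61 and -0.81), both of brain matrix, had the highest mean level, although in Cx30-/- vessels Layn (706.1 per kilobase), Stab1 (509.8) and Ncan (375.3) were above Hapln2 (374.3).

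Chondroitin chain assembly, which bikunin needs for its sugar chain, held the only pathway genes that were 2-fold different in both comparisons. These were 2 of 14, beside 1.42% of all genes past the minimum. All 14 listed genes passed the minimum, with medians of -0.16 and -0.08. Xylt1, a xylosyltransferase that starts the chain, was at 113.5 in C57BL6 WT, 158.8 in C57BL6-BALB/c WT and 54.6 normalized counts in Cx30-/- vessels, log2 ratios of -1.06 (-1.55 to -0.58) and -1.54 (-2.03 to -1.08). Chsy3, a chondroitin synthase, had 120.5, 122.1 and 43.0 normalized counts, log2 ratios of -1.49 (-2.03 to -0.97) and -1.50 (-2.06 to -0.98). For both genes the Cx30-/- library was the lowest of the 3. Neuron genes such as Snap25 and Syt1 were lower in the same library, with median log2 ratios of -0.53 and -0.79 over 8 genes, 7 of them lower in both comparisons, summed levels of 40195.7, 48541.5 and 28142.9 normalized counts and none at 0; their part in the values of Xylt1 and Chsy3 was not tested. The abundant members B3gat3 (-0.17 and -0.02) and Chpf2 (-0.06 and -0.42) differed little, and Chsy1 had the highest ratios (0.15 and 0.48).

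Among genes related to the products of Ambp, of 11 Kunitz-type inhibitors, 7 passed, with medians of -0.12 and 0.25. Tfpi, the inhibitor of tissue factor, had the highest ratios (0.28 and 0.51), Papln, papilin of the extracellular matrix, the lowest mean (-0.31 and -1.15, with Spint1 lower against C57BL6 WT at -0.57), and App (-0.12 and 0.35) and Aplp2 (-0.05 and 0.28) were the most abundant. Of 12 lipocalins, 5 passed, with medians of 0.32 and 0.30. Ptgds, the prostaglandin D synthase of meninges (0.42 and 0.30), and Apod (0.41 and 0.82) were the most abundant. C8g, a chain of complement C8, had the lowest ratios (-0.31 and -0.70). Lcn2, an iron-carrier-binding protein of inflammation, was at 4261.3 in C57BL6 WT, 681.6 in C57BL6-BALB/c WT and 5301.9 normalized counts in Cx30-/- vessels, log2 ratios of 0.32 and 2.96, so C57BL6-BALB/c WT stood apart from the other two libraries. Of 12 trypsin-like proteases and plasma inhibitors, 4 passed, with medians of 0.38 and 0.58. Klkb1, plasma prekallikrein, had the highest ratios (0.55 and 0.98). Serping1, the C1 inhibitor, was the most abundant (0.23 and 0.42).

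Ambp is known as a liver gene, and most of the listed hepatocyte markers had few or no reads. Of 15 hepatocyte markers, Serpina1a, Fga, Fgb and Fgg had 0 counts in all 3 libraries, and Alb, which encodes albumin, had 0, 1 and 0 counts. The summed level of the list, 137775.4, 53049.9 and 71488.7 normalized counts, was nearly all Ttr, which choroid plexus also makes and which had 157623 counts in C57BL6 WT, 49004 in C57BL6-BALB/c WT and 68029 in Cx30-/- vessels. Besides Ttr, only Tat, which encodes tyrosine aminotransferase, passed the minimum in both comparisons, with 50, 34 and 63 counts and log2 ratios of 0.60 and 0.85. Apoa2 had 25, 1 and 0 counts. Among transcription factors known for liver expression, Cebpa had 298, 203 and 250 counts (log2 0.01 and 0.26), while Hnf4a, a nuclear receptor of hepatocytes, had 1, 0 and 0. Of 12 acute phase plasma proteins, 7 passed and all 7 were higher in both comparisons, with medians of 0.43 and 0.89. Of these 7, 0 were 2-fold higher in both, while 1.42% of all genes past the minimum were 2-fold different in the same direction. The highest ratios against C57BL6 WT were those of Lrg1 (0.90) and Serpina3n (0.75), and against C57BL6-BALB/c WT that of Lcn2. Cp, ceruloplasmin, had log2 ratios of 0.40 and 1.85, and A2m 0.12 and 0.50.

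Most listed genes of blood cells past the minimum were, like Ambp, highest in the Cx30-/- library. Of 10 neutrophil genes, 8 passed the minimum and 7 were at least 2-fold higher in Cx30-/- vessels in both comparisons, with medians of 1.64 and 2.07. S100a8, a calcium-binding protein of neutrophils, had 139 counts in C57BL6 WT, 56 in C57BL6-BALB/c WT and 344 in Cx30-/- vessels, and the other 6 were S100a9, Ngp, Camp, Mmp8, Retnlg and Cxcr2. The remaining gene past the minimum was at least 2-fold higher against C57BL6 WT but lower against C57BL6-BALB/c WT. The summed level of the neutrophil list was 578.9, 550.9 and 1695.3 normalized counts, with none of the 10 at 0. Of 7 red cell genes, 5 passed and 4 were at least 2-fold higher in both, Hbb-bs, Hbb-bt, Hba-a1 and Alas2, with medians of 1.28 and 2.05. The summed level was 7732.3, 4359.3 and 18509.5, with none at 0. Between the WT libraries, 4 of these 8 neutrophil genes and 3 of these 5 red cell genes passed the minimum. The others passed it through the Cx30-/- library alone, where they were high, which favours a higher ratio. Over all genes past the minimum, 1.42% were 2-fold different in the same direction in both comparisons. The hemoglobin genes are near-identical copies, and reads matching more than once were removed, so the level of each is uncertain. Ependymal genes such as Foxj1 had medians of 0.54 and 0.91, and all 8 were higher in both comparisons, with sums of 8225.7, 7235.7 and 12224.6 and none at 0. The part of these cells in the values of Ambp was not tested.

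**Figure D5:**
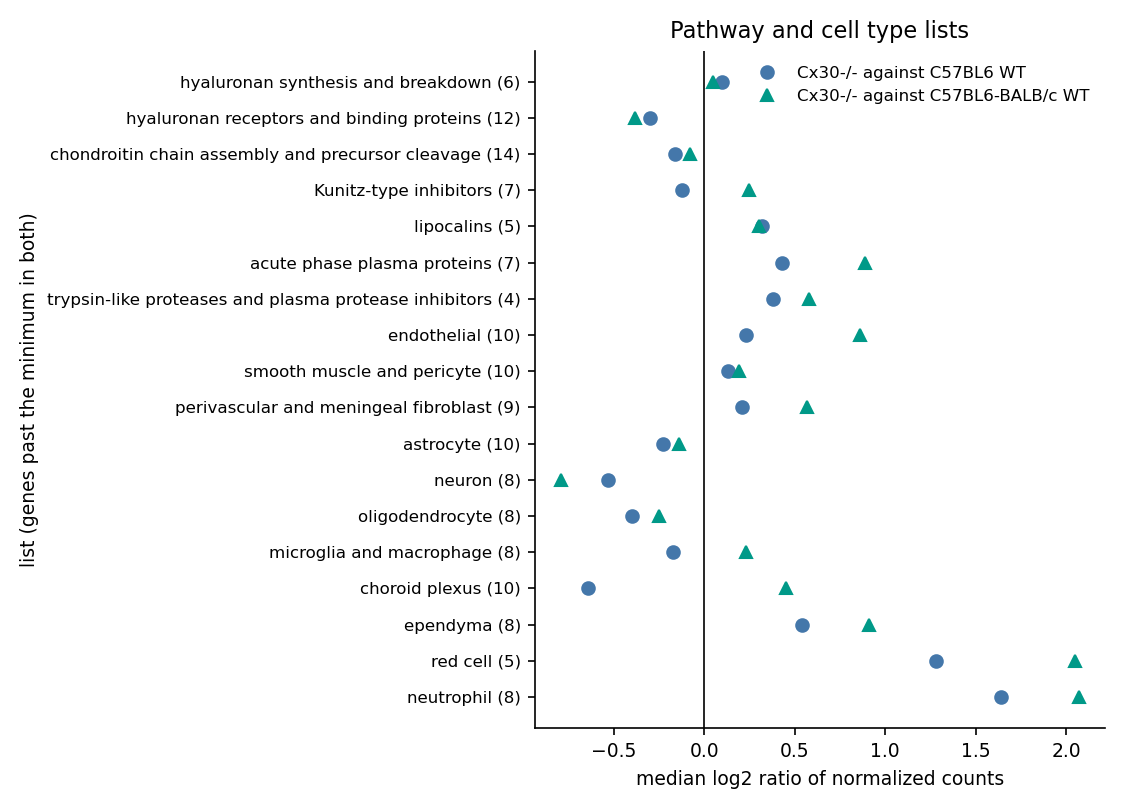
Median log2 ratio of Cx30-/- over each WT library for 7 pathway lists and 11 cell type lists, with the number of genes past the count minimum in both comparisons in brackets (the lists of hepatocyte genes and liver transcription factors, with 2 such genes each, are left out). Neutrophil and red cell genes lie highest, at 1.64 and 1.28 against C57BL6 WT, and neuron genes lie at -0.53.

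The remaining lists were astrocyte genes, with medians of -0.23 and -0.14 and summed levels of 48011.0, 47394.4 and 40064.3, oligodendrocyte genes, with medians of -0.40 and -0.25, microglia and macrophage genes, with medians of -0.17 and 0.23, and smooth muscle and pericyte genes, with medians of 0.13 and 0.19. None of these lists had a gene 2-fold different in both comparisons, where 1.42% of all genes past the minimum were.

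The genes whose pattern was most like that of Ambp were found by the Euclidean distance over the 2 log2 ratios (with a pseudocount of 1) among 14978 genes. The nearest was Olah, a thioesterase that releases fatty acids, at a distance of 0.61, with 17 counts in C57BL6 WT, 9 in C57BL6-BALB/c WT and 57 in Cx30-/- vessels. Mlycd, the decarboxylase of malonyl-CoA, was at 0.68, with 883, 720 and 3889 counts. Tnfsf8 was at 0.80, S100a8 at 0.82 and Slfn4, a gene of the Schlafen family, at 0.83, with 23, 24 and 135 counts. In all 5 the Cx30-/- library was the highest of the 3, which follows from choosing genes with ratios close to those of Ambp. The distance was taken over 3 libraries that share the Cx30-/- library in both ratios, and genes with few counts have uncertain ratios, so the order of these genes is a description.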

How the data were processed

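RNA of brain vessels was measured in 3 libraries, with groups taken from the labels' genotype and background. The authors prepared polyA+ RNA without strand information, read 50 bases per fragment, trimmed and filtered the reads with Eoulsan 1.1.6 (reads of 11 bases or fewer, or a mean quality of 12 or lower, were removed), aligned them with Bowtie 0.12.7 and removed reads matching more than once. The deposited values are the raw count per Ensembl transcript (82813 rows) of alignments on its exons, so a read on a shared exon counts for each transcript. The authors also gave each count divided by a library total, as a fraction (total 20654144 to 24830975, used here only as an alternative library size) and the number of bases without a read, from which covered bases were taken. Files and methods do not give 1 build: the methods name mm10, but positions in the files reach beyond chromosome 1 of GRCm38, so coordinates come from GENCODE M21 (GRCm38) through the transcript identifiers, which named 83.8% of the rows.

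Each gene took its row with the largest total count, divided by a median-of-ratios size factor over the 3 libraries. A gene was counted as different at a ratio of at least 2 where either library reached 50 normalized counts. Ratios have exact conditional binomial (Clopper-Pearson) intervals and levels exact Poisson intervals, both at 95% (scipy 1.17.1). Intervals and limits at a count of 0 (3 counts) cover counting error only, since reads carried no molecular identifiers. With 1 library per group no test between groups was run. The 2-fold selection was run on simulated counts with counting error only and with large changes in well-counted genes. That check therefore says nothing about replicate spread or about genes with few counts such as Ambp. edgeR 4.0.16 was used for TMM factors alone. Shared stretches of 50 bases were searched in GENCODE M21 transcripts on both strands. Upstream sequences came from RefSeq, which had 7 of the 7 genes, and the bases of exons were cut off. Protein sequences were not used here, and some named genes are not reported here. The genes named are the 7 members, Gjb6, the 5 nearest protein-coding genes on either side of Ambp, the 5 genes nearest to Ambp in pattern, and from each pathway list those 2-fold different in both comparisons, those with the highest and the lowest mean log2 ratio and the 2 most abundant per kilobase. Tnfsf8 as a neighbour of Ambp, Has2, Hnf4a, hepatocyte genes and list examples were named after their values were seen. The members and lists were chosen with earlier results of these data known. Alternatives were another normalization, another choice of rows, a pseudocount of 1, other count minimums and other ratios.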

Additional observations from a re-analysis of the deposited data

How the results depend on the processing

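No paired analysis was possible because each group had 1 library. For the same reason no library could be left out of a comparison. Under the other normalizations, choices of row and a pseudocount of 1, the log2 ratio of Ambp lay between 2.23 and 2.36 against C57BL6 WT and between 3.05 and 3.35 against C57BL6-BALB/c WT, and no gene of the family that was 2-fold different turned its direction. The total behind the deposited fractions was added as a library size after the data were seen.

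The count of members at least 2-fold different moved with the thresholds. In both comparisons it was 1, and it became 0 with 50 normalized counts in both libraries. It became 2, as Itih4 joined, with the rows summed, with no minimum and with a minimum of 10. Summing the rows counts most reads of Itih4 more than once. Against C57BL6 WT the count fell from 2 to 1 with 50 in both libraries or a ratio of at least 4. It rose to 3 with the rows summed, with no minimum or with a minimum of 10. Against C57BL6-BALB/c WT it became 1 with 50 in both libraries or a ratio of at least 4. It was 3 with the rows summed, a minimum of 10 or a ratio of at least 1.5. With no minimum it became 4, partly through 1 count of Itih1 in C57BL6-BALB/c WT. Between the WT libraries it became 2 with no minimum, through the same count of Itih1, or with a ratio of at least 1.5. A ratio of at least 4 left 0.

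Over all genes, the numbers different against C57BL6 WT, against C57BL6-BALB/c WT, between the WT libraries and in both Cx30-/- comparisons were 3812, 4960, 3983 and 1954 with no minimum, 921, 2072, 1069 and 462 with a minimum of 10, 1591, 4310, 2274 and 1104 with a ratio of at least 1.5, and 44, 85, 56 and 7 with a ratio of at least 4. With 50 in both libraries they were 230 against C57BL6 WT, 331 between the WT libraries and 126 in both. Fewer or more genes tested, or a wider or narrower ratio, make up these differences by construction.

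Depth limits Ambp, Itih4 and Itih1: the WT libraries held 6 to 14 counts of Ambp, 8 to 16 of Itih4 and 0 or 1 of Itih1.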
